A study of Homo sapiens with 17 samples.

Results

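RAS-induced senescence is the lasting proliferation arrest that normal cells enter when an activated RAS oncogene is switched on. The data described here are the 4 libraries, of 17 in the series, that compared senescent BJ fibroblasts with proliferating ones. BJ cells are human foreskin fibroblasts, and those used here were immortalized with hTERT, the catalytic subunit of telomerase. The senescent culture (S) carried a tamoxifen-inducible RASG12V and was kept in 1e-07 M 4-OHT-tamoxifen for 14 days. For the proliferating culture (C3) the labels name normal growth conditions and no inducer. Each culture gave 1 RNA-Seq library, which measured expression, and 1 Ribo-Seq library, which measured ribosome-protected fragments and so the level of translation. All 4 were sequenced in the same run, and all 9699 transcripts in the deposited table entered the comparison. The whole series also covered quiescence, day 5 of RAS induction and transformed cells.

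The condition labels of the 2 Ribo-Seq libraries were exchanged with respect to their titles: the one titled S.rp is labelled as proliferating and the one titled C3.rp as senescent. They were taken by title throughout. Taken that way, the senescence to proliferation ratios of the 2 assays correlated positively across transcripts (Pearson r = 0.83, Spearman rho = 0.75), and taken by the condition label Pearson r was -0.83. Transcripts are not replicates, so r is a description.

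Levels are FPKM, fragments scaled to transcript length and library size, and any value under 1 was set to 1 by the authors. A log2 ratio is senescence over proliferation. Translation efficiency (TE) is footprint level over RNA level, and the TE difference is the Ribo-Seq log2 ratio minus the RNA-Seq log2 ratio, so that it shares the RNA-Seq libraries with that ratio. With 1 library per group and assay, no difference had a replicate check and no test was possible. A transcript was counted as higher or lower when its level differed at least 2-fold. The spread between proliferating cultures serves as the yardstick: C3 against the authors' pooled value of the 2 other proliferating cultures (C1 and C2, sequenced in another run) differed at least 2-fold for 7.83% of transcripts in RNA-Seq, 18.5% in Ribo-Seq and 9.69% in TE. That spread also includes differences between runs, since the study saw its Ribo-Seq samples separate mainly by processing and sequencing batch. The RNA-Seq libraries of C1 and C2 were also paired-end, unlike those of C3 and S. S and C3 shared a run, so the yardstick may be wider than the spread between cultures alone. Fewer expressing cells and less RNA per cell cannot be told apart in such bulk libraries.

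The senescence program as known from textbooks has several arms. The p53 and RB pathways hold the cell cycle arrested, with the CDK inhibitors p21 and p16 as their effectors, and the genes of DNA replication and mitosis are shut off. Lamin B1 is lost, lysosomal beta-galactosidase activity rises, and the cells secrete cytokines, chemokines and matrix proteases, together called the senescence-associated secretory phenotype. Translation of mRNAs that begin with a pyrimidine tract (TOP mRNAs), such as those of ribosomal proteins, is under control of mTOR signaling.

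In RNA-Seq, 687 transcripts were higher in senescence (7.08%) and 1260 were lower (13.0%), together 20.1%. In Ribo-Seq, 1069 were higher (11.0%) and 1606 lower (16.6%), together 27.6%. TE was higher for 325 transcripts (3.35%) and lower for 590 (6.08%), together 9.43% of all. This share was no larger than between C3 and the pooled cultures of another run (9.69%), a spread that includes the difference between runs. Of the 687 transcripts with higher RNA, 456 also had higher footprints, 10 had lower footprints and 221 stayed within 2-fold. Of the 1260 with lower RNA, 962 also had lower footprints and 298 stayed within 2-fold. Against the pooled value of the other proliferating cultures, 76.9% of the transcripts with higher RNA and 78.0% of those with lower RNA were again called in the same direction, compared with 56.0% of the higher and 48.8% of the lower TE calls. One or more of the 4 libraries was listed at the floor of 1 FPKM for 860 transcripts, for which a ratio or TE difference is limited by that floor.

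**Figure D1:**
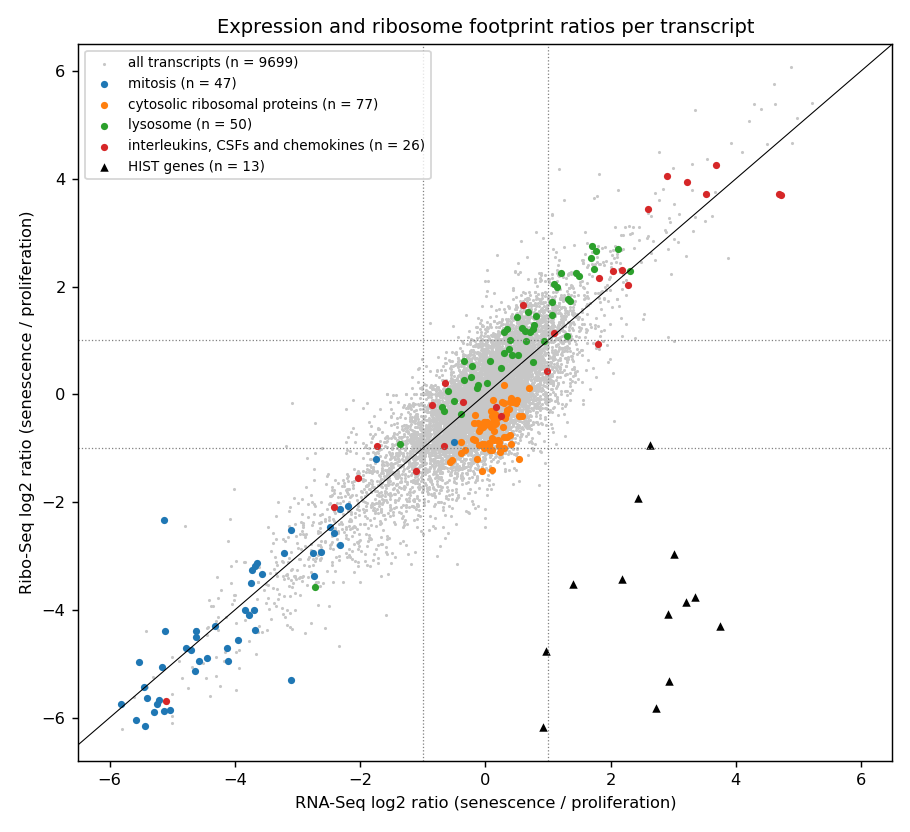
Log2 ratio of senescence to proliferation in RNA-Seq (x axis) and in Ribo-Seq (y axis), 1 point per transcript, with dotted lines at a 2-fold difference and the diagonal of equal ratios. Mitosis transcripts lie at the lower left (medians -4.11 and -4.38), ribosomal protein transcripts lie below the diagonal at a median RNA-Seq ratio of 0.12, and the 13 HIST genes lie at the lower right.

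The identity of the cultures was checked first. HRAS was abundant in all 4 libraries, at 1283.52 FPKM in proliferating and 2087.48 in senescent cells in RNA-Seq, and at 2057.82 and 4009.57 in Ribo-Seq. The pooled proliferating cultures held even more, 2415.28 FPKM in RNA-Seq and 4768.88 in Ribo-Seq, so the level of HRAS RNA does not separate induced from uninduced cells. NRAS was at 25.82 and 15.92 FPKM in RNA-Seq, far below HRAS. ESR1, the estrogen receptor gene, was at 101.87 FPKM in proliferating and 144.22 in senescent RNA. It was at 19.22 FPKM in the pooled proliferating cultures and at the floor in transformed RNA. The study lists a construct named RasV12ERTAM. Reads from a construct and from the endogenous gene were not separated for HRAS or ESR1, and the source of either signal in C3 was not tested. TERT, the gene used for immortalization, was at 4.29 and 19.12 FPKM. All 13 fibroblast markers were in the table, with 7 lower in RNA-Seq and a summed level of 7462.47 FPKM in proliferation and 5451.49 in senescence. The median RNA-Seq ratio of these markers was -1.47 against C3 but -0.28 against the pooled cultures, and 5 were lower against both. The collagen chain COL1A1 and the proteoglycan DCN were lower against both controls. The collagen chain COL1A2 was lower only against C3, at 1611.11 FPKM in C3, 384.36 in the pooled cultures and 531.34 in S. VIM, the fibroblast intermediate filament gene, was at 2955.66 FPKM in C3 and 3942.76 in S. Of the markers of other cell types, 1 of 9 epithelial, 1 of 8 endothelial and 3 of 10 leukocyte genes were in the table. The epithelial one was KRT19, at 39.76 FPKM in C3, 4.43 in S and 1 in the pooled proliferating cultures. The endothelial one, TIE1, was at the floor in all 4 libraries.

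Genes of mitosis had the lowest median RNA-Seq ratio of the 25 gene lists examined. Of 47 members in the table (49 on the list), 46 were lower in senescence in RNA-Seq and none higher, with a median log2 ratio of -4.11 against -0.002 over all transcripts. In Ribo-Seq 46 were again lower and the median was -4.38, while the median TE difference was -0.17. UBE2C, which encodes the ubiquitin-conjugating enzyme of the anaphase-promoting complex, was at 81.56 FPKM in proliferating and 1.45 in senescent RNA, and its footprints were at 103.77 and 1.93. MKI67, the proliferation antigen Ki-67, was at 43.97 FPKM in proliferating RNA and at the floor in senescent RNA, with footprints at 43.02 and the floor. Both assays thus placed these 2 transcripts at or near the floor in senescence. PLK1, a mitotic kinase, was at 60.65 and 1.4 FPKM in RNA-Seq and at 71.09 and the floor in Ribo-Seq. BIRC5, encoding survivin, was at 49.04 and 1.06 FPKM in RNA-Seq and at 103.75 and 3.32 in Ribo-Seq. NUSAP1, a spindle protein gene, was at 47.75 FPKM in proliferating RNA and at the floor in senescent RNA. The exception among the mitosis genes was BUB3, a spindle checkpoint gene, at 79.9 and 56.7 FPKM in RNA-Seq. CCNB1, the mitotic cyclin B1, kept a measurable level, 5.65 FPKM in senescent RNA against 70.44 in proliferating RNA. With the pooled proliferating cultures as the control, 46 of 47 were lower in RNA-Seq and 47 of 47 in Ribo-Seq, and the RNA-Seq median was -4.57.

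The promoters of these genes shared sequence features that the choice of the list did not use. Windows of 300 bases (250 before and 50 after the annotated start, RefSeq, GRCh38.p14) were matched by gene symbol for 7292 of the 9699 transcripts. Of the 40 mitosis genes with a window, 29 (72.5%) held TTTGAA on either strand, compared with 13.6% of all matched transcripts. CCAAT was present on either strand in 30 of the 40 (75%), compared with 44.0%. CCAAT was not particular to this list. It was in 81.25% of windows of endoplasmic reticulum chaperone and unfolded protein response genes and 71.4% of sterol gene windows. The RNA-Seq medians of those lists were 0.26 and 0.49. TTTGAA is the core of the cell cycle genes homology region, and CCAAT is the box bound by NF-Y. Of the 934 transcripts lower in RNA-Seq that had a window, 22.2% held TTTGAA and 49.7% held CCAAT. A gene with several annotated starts was counted once if any window held the string, and over all 35116 windows of the reference the shares were 15.2% for TTTGAA and 34.6% for CCAAT. Sites follow for genes whose RNA was at or near the floor in senescence, with the searched string in capitals, each 5′ to 3′ on the strand of the gene.
PLK1, TTTGAA, chr16:23678852-23678873, plus strand: gcgccgcgTTTGAAttcgggga
CDC20, TTTGAA, chr1:43358908-43358929, plus strand: ggttggatTTTGAAggagccaa
MKI67, TTTGAA, chr10:128126457-128126478, minus strand: cgccagaaTTTGAAtcttcgtt
PLK1, CCAAT, chr16:23678808-23678828, plus strand: ccccgcggCCAATcagtggcg
CDC20, CCAAT, chr1:43358873-43358893, plus strand: cggagaggCCAATgggctagg
MKI67, CCAAT as its complement, chr10:128126509-128126529, minus strand: cccttcctATTGGtcccatgc
In these 3 genes, and in NUSAP1, the CCAAT string lay upstream of the TTTGAA string. The order was not general. In CDK1, at 35.13 FPKM in proliferating RNA and at the floor in senescent RNA, CCAAT began at base -150 and TTTGAA at base -161. CDC20, which activates the anaphase-promoting complex and is given here as a further example of the list, was at 86.15 FPKM in proliferating and 2.19 in senescent RNA.

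DNA replication genes were lower almost as uniformly. Of 48 members in the table, 43 were lower and 1 was higher in RNA-Seq, with a median of -2.78, and 42 were lower in Ribo-Seq with a median of -2.92. RRM2, the small subunit of ribonucleotide reductase, was at 75.93 and 1.36 FPKM in RNA-Seq and at 249.05 and 3.35 in Ribo-Seq. TK1, thymidine kinase, was at 72.26 and 2.24 FPKM in RNA-Seq. CDC45 and CDT1, which act at replication origins, were at 15.73 and 12.74 FPKM in proliferating RNA and both at the floor in senescent RNA. These transcripts were low in senescence in both assays. The member with higher RNA was CCND1, the G1 cyclin D1, at 476.29 FPKM in proliferating and 1022.72 in senescent RNA, and at 1085.53 and 1739.99 in Ribo-Seq. E2F1, the transcription factor of the G1 to S transition, was at 13.56 and 2.23 FPKM in RNA-Seq. Letters that resemble an E2F site were more frequent in this list than in all matched promoters: TTTGGCGC stood on either strand in 9 of 39 windows (23.1% against 1.45%) and GGCGGGAA in 12 of 39 (30.8% against 6.8%). CDC6, a licensing factor gene, and CDT1 serve as examples, with the searched string in capitals.
CDC6, TTTGGCGC, chr17:40287878-40287901, plus strand: cattcggaTTTGGCGCgagcgcgg
CDT1, GGCGGGAA, chr16:88803757-88803780, plus strand: ggaaatttGGCGGGAAccgcgccc

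In contrast with the cell cycle genes, p53 targets were higher. Of 29 members in the table, 15 were higher in RNA-Seq and none lower, with a median of 1.02, and 11 were higher and 1 lower in Ribo-Seq with a median of 0.59. The median TE difference was -0.32, and -0.18 against the pooled cultures. CDKN1A, which encodes the CDK inhibitor p21, was at 171.63 FPKM in proliferating and 814.41 in senescent RNA. Its footprints were at 222.83 and 547.83 FPKM, a smaller ratio (log2 1.30 against 2.25), giving a TE difference of -0.95. GDF15, a secreted stress cytokine, was at 5.47 and 162.91 FPKM in RNA-Seq and at 17.27 and 436.37 in Ribo-Seq. Both were above the pooled proliferating level too, which was 80.77 FPKM for CDKN1A and 15.24 for GDF15 in RNA-Seq. GADD45A, a DNA damage response gene, was at 57.41 and 179.57 FPKM (pooled proliferating value 94.15), and RRM2B, the p53-induced subunit of ribonucleotide reductase, at 12.22 and 37.81. SESN2, a stress-induced inhibitor of mTOR signaling, was at 8.24 and 16.71 FPKM in RNA-Seq (pooled proliferating value 14.56). SESN1 was at 5.15 and 5.21 FPKM in RNA-Seq (pooled proliferating value 2.49) and at 4.57 and 6.88 in Ribo-Seq (pooled proliferating value 1.44). MDM2, the p53 ubiquitin ligase, showed the opposite balance of the assays to CDKN1A: its RNA was at 20.52 and 35.32 FPKM and its footprints at 44.23 and 139.77, a TE difference of 0.88.

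Among the 9 CDK inhibitor and RB family members in the table, 2 were higher and 5 lower in RNA-Seq. The 2 were CDKN1A and CDKN2A, the gene of p16 and ARF. CDKN2A RNA was at 6.75 FPKM in proliferating and 27.94 in senescent cells, but its footprints were at 8.92 and 6.33, which gave a TE difference of -2.54. The pooled proliferating cultures had 17.19 FPKM of CDKN2A RNA, between the C3 and the senescent values. The authors counted 1 transcript per gene, so the p16 and ARF forms were not separated. CDKN3, a mitotic phosphatase despite its place in this list, was at 25.29 and 1.31 FPKM in RNA-Seq. CDKN2C, which encodes p18, was at 17.35 FPKM and at the floor, and RBL1, which encodes the RB relative p107, at 7.15 FPKM and at the floor.

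**Figure D2:**
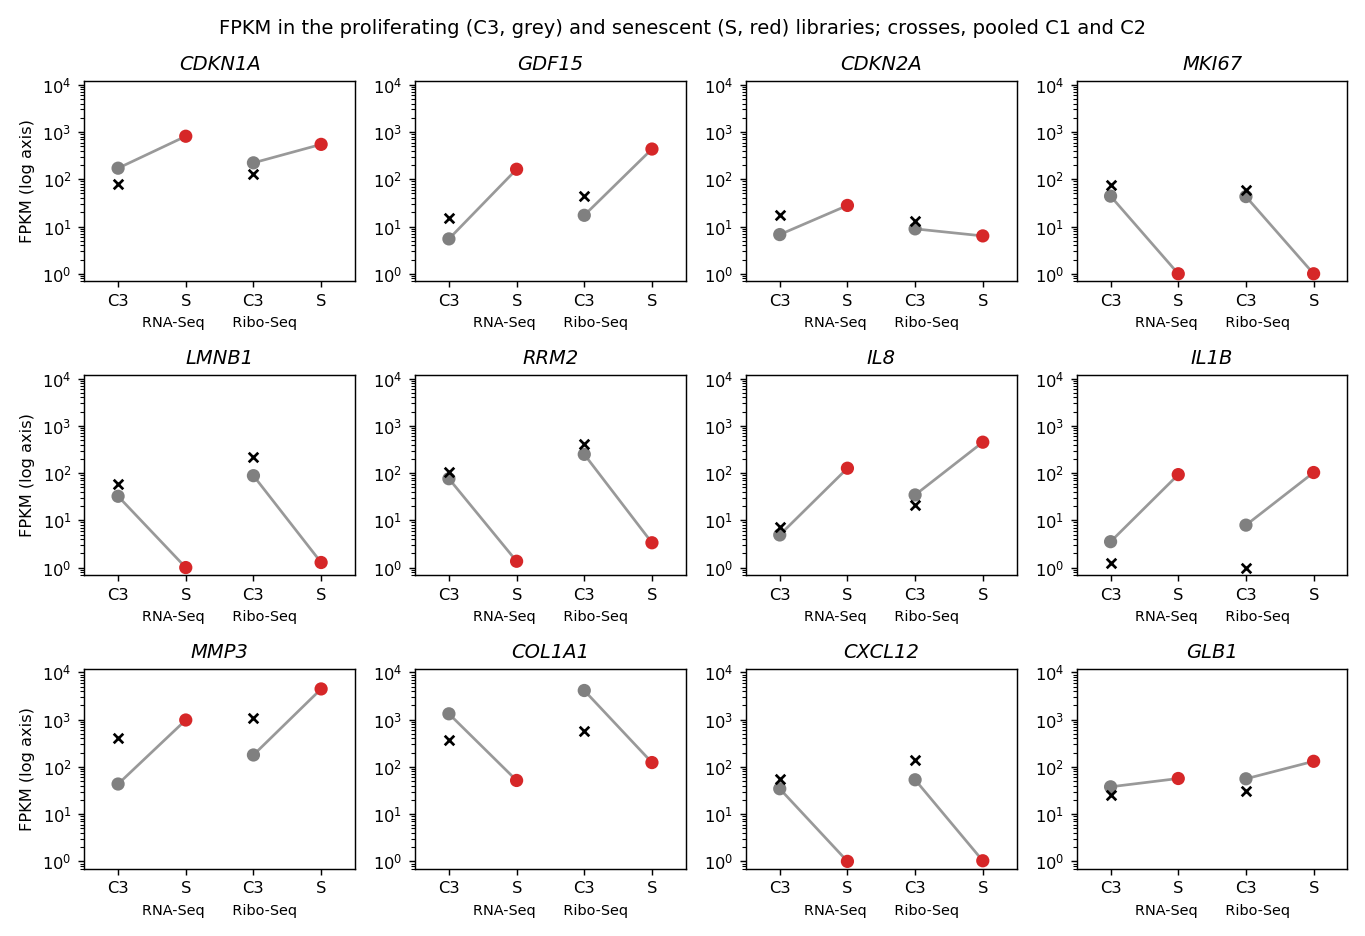
FPKM of 12 genes on a log axis in the proliferating library C3 (grey) and the senescent library S (red), for RNA-Seq (left pair) and Ribo-Seq (right pair), with black crosses for the authors' pooled value of C1 and C2. MKI67 and LMNB1 are at the floor of 1 FPKM in senescent RNA, CDKN2A differs between the 2 assays (27.94 FPKM in senescent RNA and 6.33 in senescent footprints), and for MMP3 and COL1A1 the cross lies between C3 and S.

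Genes of the nuclear lamina and of chromatin went mostly in the same direction as the cell cycle genes. The list of nuclear lamina and high-mobility-group genes also held other chromatin genes, such as EZH2, DNMT1, CBX5, H2AFX and CHAF1A. Of its 30 members, 16 were lower and 1, the histone variant gene H2AFZ, was higher in RNA-Seq (median -1.33). In Ribo-Seq 21 were lower (median -1.61). LMNB1, which encodes lamin B1, was at 32.27 FPKM in proliferating RNA and at the floor in senescent RNA, with footprints at 88.11 and 1.28. HMGB2, a chromatin protein gene, was at 68.95 and 3.5 FPKM in RNA-Seq and at 388.82 and 13.25 in Ribo-Seq. ASF1B and CHAF1B, histone chaperone genes, were both at the floor in senescent RNA, from 21.14 and 10.41 FPKM. All 4 were thus reduced to a small remainder of their proliferating level in both assays. HMGA1, an abundant high-mobility-group gene given as an example, had RNA at 570.74 and 561.26 FPKM and footprints at 266.17 and 129.13, a TE difference of -1.02 against C3 and -0.22 against the pooled cultures.

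The list of interleukins, colony-stimulating factors and chemokines was higher in part. It also held genes of other kinds, such as the receptor gene IL1R1, the NF-kB subunit and inhibitor genes NFKB1, NFKB2, RELB and NFKBIA, and ICAM1. Its counts and medians are thus not those of secreted factors alone. Of 26 members in the table (40 on the list), 13 were higher and 5 lower in RNA-Seq, with a median of 1.05. In Ribo-Seq 13 were higher and 4 lower, with a median of 1.04. With the pooled cultures as control the medians were 1.66 in RNA-Seq and 1.88 in Ribo-Seq. Against both C3 and the pooled proliferating cultures, 13 members were higher and 4 lower in RNA-Seq. IL8, the neutrophil chemokine now named CXCL8, was at 4.9 FPKM in proliferating and 126.68 in senescent RNA, and its footprints were at 34.45 and 450.33. IL1B, the upstream inflammatory cytokine, was at 3.53 and 92.79 FPKM in RNA-Seq and at 7.91 and 102.71 in Ribo-Seq. Against C3 the footprint ratio of both was smaller than the RNA ratio, with TE differences of -0.98 and -1.02, but against the pooled cultures the TE difference turned to 0.23 for IL8 and 0.43 for IL1B. IL6 was much less abundant, at 1.7 and 6.99 FPKM in RNA-Seq and 4.6 and 22.56 in Ribo-Seq. CSF3, the granulocyte growth factor, was at the floor in proliferating RNA and at 12.85 FPKM in senescent RNA. ICAM1, the leukocyte adhesion receptor named as an example, was at 18.87 and 217.58 FPKM. Members moved in both directions, however. CXCL12, the stromal chemokine that binds CXCR4, was at 34.43 FPKM in proliferating RNA and at the floor in senescent RNA, with footprints at 53.33 and 1.03. CCL2, the monocyte chemokine given as another example, was at 80.99 and 15.15 FPKM in RNA-Seq.

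Letters that match the NF-kB consensus GGNNTTTCC stood on either strand in 11 of 18 windows of this list (61.1%), compared with 9.27% of all matched transcripts. The share is that of the whole list, with its NF-kB subunit and inhibitor genes. How far the choice of members by textbook role set this share was not tested. Among members higher in both assays, sites were looked for in IL8, IL1B, CSF3, CXCL1, IL6 and ICAM1. No matched window with the string was found for IL8, IL1B or CSF3. The sites of CXCL1, IL6 and ICAM1 are shown.
CXCL1, chr4:73869307-73869331, plus strand: gaactccgGGAATTTCCctggcccg
IL6, chr7:22727120-22727144, plus strand: caaatgtgGGATTTTCCcatgagtc
ICAM1, the complement of the string, chr19:10270926-10270950, plus strand: tttagcttGGAAATTCCggagctga
CXCL1, the chemokine gene of the first of these, was at 6.65 and 32.27 FPKM in RNA-Seq and at 11.23 and 45.61 in Ribo-Seq.

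Among matrix proteases and their inhibitors more members were higher in footprints than in RNA. Of 26 members, 7 were higher and 6 lower in RNA-Seq (median 0.21), whereas 13 were higher and 3 lower in Ribo-Seq (median 0.86). Against the pooled cultures the medians were 0.73 in RNA-Seq and 1.12 in Ribo-Seq, and against both controls 6 were higher and 1 lower in RNA-Seq and 11 were higher and 1 lower in Ribo-Seq. MMP3, stromelysin, was at 43.36 FPKM in proliferating and 981.72 in senescent RNA, and at 178.43 and 4461.91 in Ribo-Seq. The pooled proliferating cultures already held 398.95 FPKM of MMP3 RNA and 1108.42 of footprints, so the size of this difference depends on the control culture. MMP1, interstitial collagenase and an example of the list, was at 796.08 and 2062.84 FPKM in RNA-Seq, with a pooled proliferating value of 1289.37. SERPINB2, the plasminogen activator inhibitor of type 2, was at 22.92 and 270.11 FPKM, and its pooled proliferating value was 15.18. MMP10 was at the floor in proliferating RNA and at 9.81 FPKM in senescent RNA. In the opposite direction, SERPINF1, an antiangiogenic serpin gene, was at 13.4 and 1.18 FPKM. The windows of SERPINB2 and MMP10 held TGANTCA, the letters of an AP-1 site, as did 4 of 11 windows of the list (36.4%) and 6.8% of all matched transcripts.
SERPINB2, TGANTCA, chr18:63887595-63887617, plus strand: taaaatgtTGAATCActcaaagg
MMP10, TGANTCA, chr11:102780681-102780703, minus strand: cacatgcaTGAATCAtactgttg

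Growth factors and IGF binding proteins were split, with 8 higher and 12 lower of 32 in RNA-Seq, a median of -0.06 and a median TE difference of 0.53. Against the pooled cultures the RNA-Seq median turned to 0.32 and the TE median was 0.22, and 7 members were higher and 6 lower in RNA-Seq against both controls. STC1, the secreted glycoprotein stanniocalcin, was at 41.12 and 700.14 FPKM in RNA-Seq and at 209.91 and 4720.12 in Ribo-Seq. PTN, the heparin-binding growth factor pleiotrophin, was at 42.3 FPKM in proliferating RNA and at the floor in senescent RNA. IGFBP3 was at 56.56 and 3.4 FPKM, and its pooled proliferating value was 17.32. The epidermal growth factor family ligand EREG, an example of the list, was at 8.24 and 28.41 FPKM in RNA-Seq and at 33.39 and 184.1 in Ribo-Seq. Of 34 feedback regulators and targets of ERK, the kinase downstream of RAS, 5 were higher and 2 lower in RNA-Seq (median 0.09). Over all transcripts 7.08% were higher and 13.0% lower. Against both controls, 4 of the 5 were higher and 1 of the 2 was lower. The phosphatase genes DUSP4 and DUSP5, which inactivate ERK, were at 15.52 and 73.64 FPKM and at 31.83 and 123.14 FPKM in RNA-Seq. The pooled proliferating values of DUSP4 and DUSP5 were 34.45 and 36.7 FPKM. MYC was at 31.71 and 29.83 FPKM.

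Collagens and other matrix proteins were lower against C3, and here the control mattered. Of 54 members, 32 were lower and 3 higher in RNA-Seq, with a median of -1.62, and 30 were lower in Ribo-Seq with a median of -1.36. Their median TE difference was 0.44, and 0.46 against the pooled cultures. C3 itself was above the pooled proliferating cultures for these genes, by a median of 0.95 in RNA-Seq. Against the pooled value the median was -0.54 in RNA-Seq and 0.00 in Ribo-Seq, and 17 members were lower in RNA-Seq against both controls. COL1A1, the major fibrillar collagen chain, was at 1328.21 FPKM in C3, 371.15 in the pooled proliferating cultures and 51.57 in S. Its footprints were at 4133.72, 587.74 and 123.39 FPKM in the same order. COL1A1 was thus lowest in senescent cells against either control, but by a different amount. EFEMP1, encoding fibulin-3, was at 43 FPKM in C3, at 11.05 in the pooled cultures and at the floor in S. COL10A1, a network-forming collagen gene, went the other way, at the floor in C3 and at 24.41 FPKM in senescent RNA, with footprints at 1.78 and 96.72. Smooth-muscle contractile and cytoskeletal genes had a median of -0.56 in both RNA-Seq and Ribo-Seq, with 7 of 30 lower in RNA-Seq, beside 13.0% of all transcripts. The RNA-Seq median was -0.23 against the pooled cultures, and 3 of the 30 were lower against both controls, as were 983 of all 9699 transcripts. LMOD1, an actin nucleator gene of smooth muscle, was at 54.02 FPKM in C3, 8.21 in the pooled cultures and 4.64 in S.

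Lysosomal genes were higher, and more so in footprints than in RNA. Of 50 members, 16 were higher and 2 lower in RNA-Seq (median 0.61), and 27 were higher and 1 lower in Ribo-Seq (median 1.12). The TE difference was above 0 for 46 of 50, with a median of 0.52 against -0.03 over all transcripts, although only 2 passed 2-fold in TE. GLB1, the lysosomal beta-galactosidase whose activity is the usual stain for senescent cells, was at 37.85 and 56.75 FPKM in RNA-Seq and at 55.93 and 131.16 in Ribo-Seq. NEU1, the lysosomal sialidase, was at 21.49 and 106.85 FPKM in RNA-Seq and at 40.47 and 198.11 in Ribo-Seq. CTSL1, cathepsin L, was at 85.6 and 371.98 FPKM in RNA-Seq and at 345.85 and 2231.79 in Ribo-Seq. For all 3 the senescent value was above the pooled proliferating value in both assays. NPC1, the lysosomal cholesterol exporter, was at 14.34 and 48.85 FPKM in RNA-Seq and at 32.28 and 203.17 in Ribo-Seq. CTSH, cathepsin H, was an exception, at 6.57 FPKM in C3, 1.5 in the pooled cultures and at the floor in senescent RNA. Against the pooled cultures, 35 of 50 lysosomal genes were higher in Ribo-Seq and the median was 1.31, and in RNA-Seq 24 were higher and the median was 0.98.

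Genes of endoplasmic reticulum chaperones and the unfolded protein response showed the same balance between assays. In RNA-Seq 3 of 36 were higher and 1 lower (median 0.26), beside 7.08% and 13.0% of all transcripts. In Ribo-Seq 14 were higher and none lower (median 0.81), beside 11.0% and 16.6% of all transcripts. The TE difference was above 0 for 34 of 36 with a median of 0.58. Against the pooled cultures 8 were higher in RNA-Seq (median 0.42) and the TE median was 0.46. DNAJB9, a co-chaperone induced by the IRE1 branch, was at 10.09 and 22.62 FPKM in RNA-Seq and at 34.87 and 161.58 in Ribo-Seq. HSPA5, the chaperone BiP and an example of the list, was at 324.03 and 356.79 FPKM in RNA-Seq and at 1497.17 and 2405.84 in Ribo-Seq. Sterol synthesis and uptake genes were higher for 7 of 29 in RNA-Seq (median 0.49), beside 7.08% of all transcripts. In Ribo-Seq 11 were higher (median 0.69), beside 11.0% of all transcripts. ABCA1, the cholesterol efflux pump, was at 4.09 and 17.17 FPKM in RNA-Seq and at 6.84 and 58.62 in Ribo-Seq. SQLE, squalene epoxidase of cholesterol synthesis and an example of the list, had RNA within 2-fold, at 20.04 and 28.18 FPKM, and a TE difference of 1.32. Targets of ATF4 and the integrated stress response gave 6 higher and 2 lower of 37 in RNA-Seq, beside 7.08% and 13.0% of all transcripts. Their median was 0.47, but it turned to -0.22 against the pooled cultures. PHGDH, the first enzyme of serine synthesis, was at 47.49 and 14.78 FPKM in RNA-Seq and ATF3, a stress-induced transcription factor gene, at 2.29 and 10.43. Interferon-induced genes were 4 higher and 9 lower of 41 in RNA-Seq (median -0.26), beside 7.08% higher and 13.0% lower over all transcripts. IFI6 was at 37.38 and 234.83 FPKM, and PSMB9, the immunoproteasome subunit, was at 6.36 FPKM and at the floor.

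For ribosomal protein mRNAs, RNA and footprints parted. None of 77 members in the table differed 2-fold in RNA-Seq (median 0.12). In Ribo-Seq 12 were lower, a share close to the 16.6% of all transcripts, with a median of -0.56 against -0.10 over all transcripts. The TE difference was below 0 for 77 of 77, with a median of -0.66. In TE 16 were past 2-fold, beside 6.08% of all transcripts that were lower. Against the pooled proliferating cultures, 74 of 77 were below 0 and the median was -0.62, whereas C3 and the pooled cultures differed by a median TE of 0.03. Of the 16 members past 2-fold in TE, 6 were so against both controls, as were 288 of all 9699 transcripts. RPL41, which encodes the smallest ribosomal protein, was at 1320.1 and 1277.71 FPKM in RNA-Seq and at 25590.04 and 9541.76 in Ribo-Seq, but the pooled proliferating footprints were at 10395.66, and its TE difference was -1.38 against C3 and -0.19 against the pooled cultures. RPS28 was at 215.18 and 310.85 FPKM in RNA-Seq and at 460.1 and 201.43 in Ribo-Seq, the lowest TE difference of the list (-1.72). RPS12 was at 888.28 and 952.27 FPKM in RNA-Seq and at 943.32 and 358.42 in Ribo-Seq (pooled proliferating footprints 594.22). All 3 senescent footprint levels lay below both controls, that of RPL41 only slightly below the pooled value. RPS23 was at 155.62 and 171.79 FPKM in RNA-Seq and at 1125.29 and 627.47 in Ribo-Seq. RPL23 and RPL34 had TE differences of -0.62 and -0.41. RPS24 came nearest to 0, at -0.14, but was at -0.79 against the pooled cultures. The mRNAs of ribosomal proteins have near-identical pseudogenes in the genome, and the authors kept only reads that mapped uniquely among protein-coding transcripts.

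**Figure D3:**
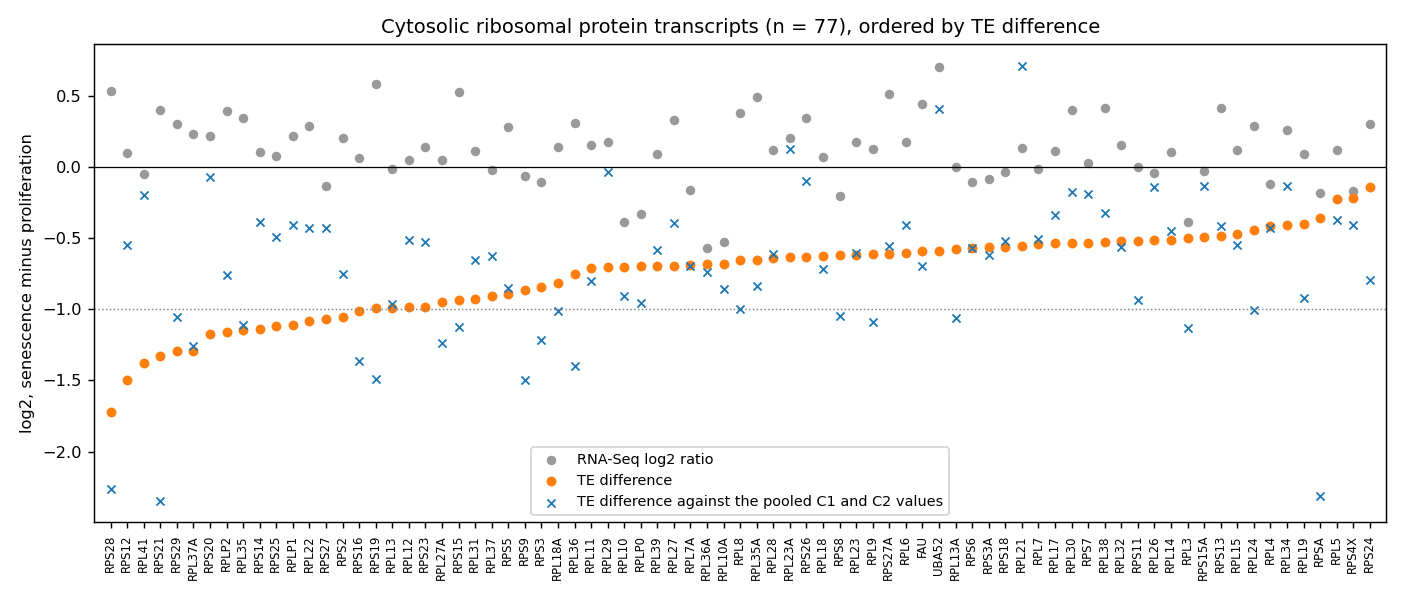
RNA-Seq log2 ratio (grey) and TE difference (orange) between senescence and proliferation for each of the 77 ribosomal protein transcripts, ordered by TE difference, with blue crosses for the TE difference against the pooled C1 and C2 values. All 77 orange points lie below 0, from -1.72 (RPS28) to -0.14 (RPS24), and 74 of the crosses do.

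Ribosomal protein mRNAs begin with a pyrimidine tract, and the annotated starts showed it. The longest run of C and T overlapping the start (from 5 bases before to 10 bases after) had a median length of 11.5 bases in the 62 ribosomal protein genes with a window and of 4 bases in all matched transcripts. It was 8 bases or longer in 52 of the 62 (83.9%), compared with 18.2% of all matched transcripts and 12.75% of all windows. Members from both ends of the TE order and 2 elongation factors are given from 5 bases before to 20 bases after the start, with the run in capitals.
RPS28, chr19:8321491-8321515, plus strand: acgtgaCTCCTCTCCgccagaccgc
RPS12, chr6:132814564-132814588, plus strand: gaggCCTCTTTCCCTgccgccgccg
RPS24, chr10:78033858-78033882, plus strand: tggTTCTCTTTTCCTCCTTggctgt
EEF1A1, chr6:73521013-73521037, minus strand: acgTTCTTTTTCgcaacgggtttgc
EEF2, chr19:3985444-3985468, minus strand: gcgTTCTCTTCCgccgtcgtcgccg
A longer run did not always go with a lower TE difference: RPS28 has 9 bases and the lowest, and RPS24 has 16 bases and the one nearest 0. The relation across all ribosomal protein members was not tested. Over all matched transcripts, those with a run of 12 bases or more (437 transcripts) had a median TE difference of 0 and those with a run of 3 bases or fewer (2439) of -0.04.

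The other components of the translation machinery differed less. Elongation factors and other TOP mRNAs had a median TE difference of -0.19, with none of 25 past 2-fold and 22 below 0. EEF1A1, which delivers aminoacyl-tRNA, was at 2848.49 and 2721.44 FPKM in RNA-Seq and at 7415.32 and 6203.05 in Ribo-Seq, and EEF2, the translocation factor, had a TE difference of 0.01. Initiation factors had a median TE difference of -0.31. Of 31, 3 were past 2-fold, all lower, where 6.08% of all transcripts were lower in TE. These were EIF5A (-1.45) and the 2 genes of the eIF4E-binding repressors, EIF4EBP1 (-1.17) and EIF4EBP2 (-1.23). Against the pooled cultures the TE difference was -2.02 for EIF5A, -0.01 for EIF4EBP1 and -0.07 for EIF4EBP2, so only that of EIF5A was past 2-fold against both controls, and the median of the list was -0.18. EIF5A was at 51.57 and 58.94 FPKM in RNA-Seq and at 519.91 and 217 in Ribo-Seq, with 14.89 and 222.65 FPKM in the pooled RNA and footprints. Ribosome biogenesis genes had a median RNA-Seq ratio of -0.07 against C3 and -0.63 against the pooled cultures, with 1 of 58 lower and 1 higher against C3. The lower one was FBL, the nucleolar methyltransferase fibrillarin, at 78.37 and 30.69 FPKM in RNA-Seq and 173.28 in the pooled cultures. The higher one was NOP10, a component of box H/ACA particles, at 114.12 and 305.97 FPKM. Abundant transcripts outside the list also had negative TE differences, at -0.58 for GAPDH, a glycolytic enzyme gene, and -0.39 for ACTB, cytoplasmic actin.

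The lowest TE differences of the table were those of histone genes, a family picked out after its values were seen. All 13 transcripts named HIST were lower in TE (median -6.98), 12 were lower in footprints (median -3.86) and 11 were higher in RNA-Seq (median 2.72). HIST1H4H, a histone H4 gene, was at 2.35 FPKM in proliferating and 31.42 in senescent RNA, while its footprints were at 1483.92 and 74.95. HIST1H1C, a linker histone gene, was at 10.98 and 88.23 FPKM in RNA-Seq and at 644.53 and 82.2 in Ribo-Seq. Footprints of both stood far above the RNA level in proliferating cells, and the levels in the 2 assays lay closer together in senescent cells. Most replication-dependent histone mRNAs end in a stem-loop without a poly(A) tail. The RNA-Seq libraries were made from poly(A)-selected RNA and the Ribo-Seq libraries were not, and the part of this difference in the TE values was not tested. Histone genes are also near-identical copies of each other, so reads may be split or lost between them.

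**Figure D4:**
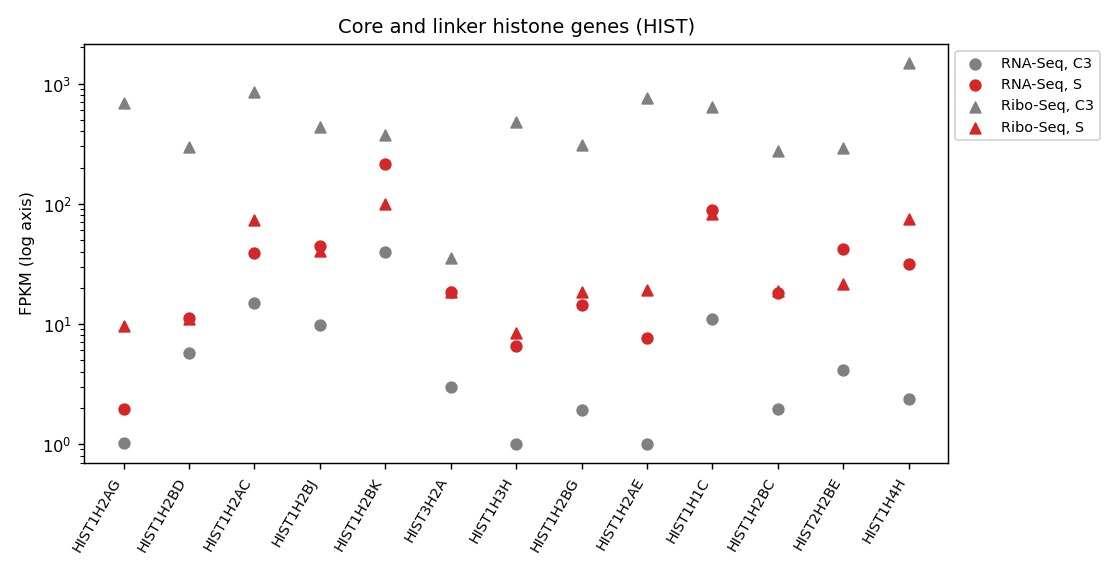
FPKM on a log axis of the 13 HIST transcripts in RNA-Seq (circles) and Ribo-Seq (triangles), in C3 (grey) and S (red), ordered by RNA-Seq ratio. Grey triangles lie highest for all 13, and for 12 of the 13 the senescent footprints are at least 2-fold below them.

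At the other end of the table, the 10 highest TE differences included FOXM1 (2.80) and MYBL2 (2.34), cell cycle transcription factor genes. Both were at the floor in senescent cells in both assays, from 35.05 and 27.77 FPKM in proliferating RNA but only 5.02 and 5.47 in footprints, so these values are set by the floor. Among those above the floor in all libraries was CES2, a carboxylesterase gene with RNA at 16.28 and 24.04 FPKM and footprints at 2.95 and 21.18. SPTAN1, encoding non-erythroid spectrin, had RNA at 88.78 and 89.21 FPKM and footprints at 63.08 and 222.94, with 47.79 in the pooled cultures. The 10 highest RNA-Seq ratios included the genes of complement component C3 (5.21), KYNU of tryptophan breakdown (4.88) and ACPP, acid phosphatase (4.98). Complement C3 and KYNU were at the floor in proliferating RNA, so their ratios are limited by it. The 10 lowest included SULF1, a heparan sulfate sulfatase gene, at 49.11 FPKM in C3 and at the floor in S, but at 1.18 FPKM in the pooled proliferating cultures. SULF1 therefore separated C3 from the other 2 proliferating cultures almost as far as it separated C3 from S.

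The other conditions of the series with RAS give context for the lists. At day 5 of RAS induction, measured against the pooled proliferating cultures, the median RNA-Seq ratio was -0.60 for mitosis, 0.13 for p53 targets and 0.27 for lysosomal genes. In transformed cells, measured against the same C3 libraries as senescence, these medians were -0.20, -0.27 and -0.04, compared with -4.11, 1.02 and 0.61 in senescence. The median TE difference of ribosomal proteins was -0.61 at day 5, -0.03 in transformed cells and -0.66 in senescence. The list of interleukins, colony-stimulating factors and chemokines had RNA-Seq medians of 0.20 at day 5 and 1.63 in transformed cells, beside 1.05 in senescent cells. Senescence and transformation had 1 library per assay and share their control, and differences between conditions were not tested.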

How the data were processed

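RNA-Seq and Ribo-Seq libraries of BJ cells were made by the authors from poly(A)-selected RNA and from monosome-protected fragments taken after cycloheximide and RNase I treatment. The authors aligned reads with Bowtie to Ensembl protein-coding transcripts (1 per gene; genome build hg19 per the labels), kept unique hits, and deposited FPKM values, over the whole transcript for RNA-Seq and over the coding sequence for Ribo-Seq, with values under 1 set to 1. Transcripts with few reads were left out by the authors. The deposited FPKM table has 1 column for C3 and for S in each assay, and a pooled column for C1 and C2. Whole reads could not be recovered from these values, so they give no depth. Read totals stated in the study were not used here, and no interval for counting error is given. The number of transcripts at the floor was 248 and 510 in the RNA-Seq libraries of C3 and S, and 286 and 556 in the Ribo-Seq libraries.

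From these values log2 ratios and TE differences were computed with Python 3.11.15, numpy 2.4.6 and pandas 2.3.3, and checked on simulated data. A difference of at least 2-fold was counted. Gene lists (25 lists by textbook role, 780 of 871 entries in the table) and members were chosen with earlier results of these data known. Named genes are the 4 members of each list with the largest absolute RNA-Seq ratio (and, for the translation lists, the 4 with the largest TE difference) with at least 5 FPKM in 1 of the 2 libraries of the assay, the 10 highest and 10 lowest RNA-Seq ratios and TE differences of the table under the same minimum, and a fixed set of genes chosen by role. Others are given as examples, and some named genes are not reported here. A planned comparison of C1 with C2 was not made because the table used here holds only their pooled value, which also took the place of C1 and C2 in the alternative control. Promoter windows are RefSeq, GRCh38.p14, matched by symbol, and the strings spelled out in the text were searched on both strands. None of these strings contains another. Alternatives were a minimum of 5 FPKM, log2(FPKM + 1), centred ratios, the mean log2 of C3 and the pooled value as control, and the sliding limit of the study, a multiple of the local SD in 20 bins of mean level.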

Additional observations from a re-analysis of the deposited data

How the results depend on the processing

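No paired analysis was possible because the results come from no test, each group held 1 library per assay, and the pooled column carries no replicate number; for the same reason no replicate could be left out. The counts of higher and lower transcripts stayed within 1.5 times of those reported under centred ratios and the alternative control. With the sliding limit on local SDs they were smaller by construction: 246 higher and 571 lower (817 in all) in RNA-Seq, 260 higher and 571 lower (831 in all) in Ribo-Seq, and 211 higher in TE. Transcripts with higher TE numbered 325, against 212 with log2(FPKM + 1) and 190 with a minimum of 5 FPKM, which tests fewer transcripts. Pearson r between the assays was -0.826 with the Ribo-Seq libraries taken by condition label, 0.847 with the minimum and 0.834 with the alternative control. Of the 246 values of named genes past 2-fold, 233 remained so in the same direction with log2(FPKM + 1), 241 with centred ratios and 214 with the alternative control, and none turned. Of 18 list medians past 2-fold, 13, 17 and 15 remained, and none turned. The floor limits statements on transcripts near 1 FPKM.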

Other observations

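Gene families grouped by the stem of their symbol, after their values were seen, showed further differences between senescent and proliferating cells. Subunits of the vacuolar proton pump, which acidifies lysosomes, were higher for 11 of 15 in RNA-Seq (median 1.35, 7.08% of all transcripts being higher) and for 10 of 15 in Ribo-Seq (median 1.23). Subunits of respiratory complex I were higher for 11 of 33 in RNA-Seq (median 0.82) but for none in Ribo-Seq (median 0.26), and 5 were lower in TE, beside 6.08% of all transcripts. Against both controls 6 complex I subunits were higher in RNA-Seq and 3 were lower in TE. Mitochondrial ribosomal proteins showed a like balance, with a median of 0.41 in RNA-Seq, -0.09 in Ribo-Seq and -0.55 in TE. Of 73, 8 were lower in TE, again beside 6.08% of all transcripts. Their RNA-Seq median was, however, -0.01 against the pooled proliferating cultures. Solute carriers, the membrane transporters named SLC, went the other way: of 168, 17 were higher and 14 lower in RNA-Seq, where 7.08% and 13.0% of all transcripts were, but 62 were higher and 12 lower in Ribo-Seq, where 11.0% and 16.6% were. Their median TE difference was 0.56, and 0.41 against the pooled cultures. Zinc finger proteins named ZNF (224) had medians of -0.10 in RNA-Seq and 0.01 in TE. The 8 subunits of the CCT chaperonin, which folds actin and tubulin, all stayed within 2-fold of C3 in both assays.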
